A study of Mus musculus with 6 samples.

Results

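Zfp503 and Skor2 are genes for developmental transcriptional corepressors, and the windows described here are the 500-bp stretches of genome that the authors' 3 comparison tables give to either gene as the nearest transcription start site. They were 13 of the 2135 different windows listed in any of the 3 tables, 9 at Zfp503 and 4 at Skor2, and they made 22 of the 2846 entries. Both genes were picked because of how many windows they have in these tables, so their counts and differences are descriptions and carry no test. DNA methylation was measured by reduced representation bisulfite sequencing (RRBS), which reads cytosines in CpG-rich fragments cut by the enzyme MspI at CCGG. There were 6 libraries in 3 groups of 2, all from C57BL6 mouse bone marrow cells immortalised with HoxA9, transduced, transplanted into irradiated mice and sorted for the fluorescent reporter. The IDH1wt cells carried the vector pSF91-IDH1wt-IRES-EGFP and the IDH1mut cells pSF91-IDH1mut-IRES-GFP, with the R132C change named for that group in the tables. The R-2HG cells carried an empty vector, and their hosts were given the metabolite at 1 mg per day for 4 weeks; sorting was at 4 weeks in each group. All 3 groups share the HoxA9 immortalisation and the passage through a host, and the R-2HG group differs from both others in vector as well as in treatment. Whether a group's 2 libraries come from different mice is not stated in the labels. In sorted bulk cells a change in the mix of cells and a change within cells cannot be told apart.

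Zfp503, also called Nolz-1, is a zinc finger protein of the NET family, whose members repress transcription and can recruit Groucho corepressors; it is known from the developing striatum, hindbrain and eye. Skor2, also called Corl2, belongs to the SKI and SNO family of corepressors, which bind SMAD proteins and dampen TGF-beta and BMP signals, and it is known for its part in Purkinje cell differentiation in the mouse cerebellum. The metabolite made by mutant IDH1, R-2-hydroxyglutarate or R-2HG, inhibits the TET enzymes that oxidise methylated cytosine, because it resembles their cosubstrate 2-oxoglutarate.

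The promoter of Zfp503 is shown because the distances of the Zfp503 windows are counted from its start site. The sequence is the 250 bases before the start in RefSeq (build GRCm38.p6, chr14:21989602-21989851, minus strand, read 5′ to 3′), with each CpG in capitals.
Zfp503 promoter: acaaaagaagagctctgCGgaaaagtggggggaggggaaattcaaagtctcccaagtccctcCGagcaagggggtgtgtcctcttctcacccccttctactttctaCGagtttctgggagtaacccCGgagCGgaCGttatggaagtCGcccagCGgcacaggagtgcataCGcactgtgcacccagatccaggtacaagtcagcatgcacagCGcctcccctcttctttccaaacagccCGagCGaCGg
It holds 13 CpGs, against a median of 6 over the same 250 bases of all 32851 promoter entries, and 68.5% of those hold fewer. The MspI site CCGG, which reads the same on both strands, occurs in it 1 time, at -125 from the start, and 47.1% of all promoters hold at least 1. A site in the sequence does not say that the fragment was read, and none of the listed windows overlaps the start of Zfp503. The RefSeq promoter table used here held 1 of the 2 genes, and the window sequences themselves were not used here. The windows are in build mm9 and are not placed on this sequence.

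The values are methylation differences in percentage points between 2 groups, as the authors computed them, with neither group's level beside them. A positive value was read as higher in IDH1mut or R-2HG when the other group is IDH1wt, and as higher in R-2HG when the other group is IDH1mut. The table of R-2HG with IDH1wt had to be turned round for the 3 to add up. Of 4 sign orders tried on the 9 windows of Zfp503 and Skor2 that 2 tables list, this one left all 9 with an implied difference in the remaining table under the 25 points at which the tables stop, and the other orders left 4, 1 and 4. Over all genes the same order left 705 of 705 such windows under 25 points, and a residual of 0 in the 3 windows, none of them at these genes, that all 3 tables list. The whole set could still run the other way round, in which case every gain below is a loss. For IDH1mut against IDH1wt the authors' deposited table lists 1493 windows, 69.3% of them gains. For R-2HG it lists 750 windows against IDH1wt, 68.0% of them gains, and 603 against IDH1mut, 35.5% of them gains, each in the authors' deposited table of that comparison. The tables list windows of at least 25 points, and the largest of the authors' q among them was 0.00995. An absent window was thus under 25 points, had a larger q, or was not measured. No table gives a value per library or a read depth, so the spread between libraries is unknown. Of 22 marker genes for myeloid, lymphoid, erythroid and stromal cells, 2 (9.09%) were listed in any table, Col1a1 and Lepr of the 4 stromal markers. None of the 8 myeloid, 6 lymphoid and 4 erythroid markers was listed. Over all 21900 protein-coding genes of RefSeq the share was 4.81%. For R-2HG against IDH1mut, Col1a1 had 33.9 and 32.0 points and Lepr 27.6 points. Col1a1 also had 25.2 points for IDH1mut against IDH1wt, so all listed stromal windows were gains. The markers were not tested, and neither the listed nor the absent ones are a result about cell types. A lymphoid gene outside the marker list, Ebf1, was listed and is described with the striatal factors. Differences in methylation cannot show what the sorted cells express.

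At Zfp503, methylation was higher in R-2HG than in IDH1wt cells in windows from 3.6 to 7.3 kb downstream of the start site, and higher in IDH1mut than in IDH1wt cells in the part of it between 3.8 and 5.1 kb. R-2HG was listed in 9 windows and IDH1mut in 4, all of them gains in the authors' deposited tables, where 68.0% and 69.3% of the windows of all genes were gains. The median gain was 38.8 points in R-2HG and 32.4 points in IDH1mut in the authors' deposited tables, and gains of all genes had medians of 29.4 and 30.6 points. Set against each other, R-2HG was higher than IDH1mut in the 1 window listed, in a table with 35.5% gains. The windows lie on chromosome 14 from 22801501 to 22805250 in mm9, and the transcript is NM_145459 on the minus strand. The authors' distances place its start at 22808824. No mm9 annotation was used here, so exon, intron and UTR are not given.

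The 9 windows form 2 groups of overlapping windows. The near group has 5 windows over 1500 bp (22803751 to 22805250), from 3574 to 5073 bp downstream of the start. The far group has 4 windows over 1250 bp (22801501 to 22802750), from 6074 to 7323 bp downstream. Between them lie 1000 bp, and the 5 window positions of the authors' grid that fall there, some overlapping a group's edge, are listed in no table. The gap equals the 1000 bp within which windows were joined, so the 2 groups count as 1 run under that distance and as 2 when windows must overlap.

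In the near group, R-2HG cells gained more the closer a window lay to the start, up to the last one. From the farthest window to the nearest, the authors' deposited table gives differences from IDH1wt of 38.8, 39.5, 45.8, 47.8 and 32.7 points. The 2 largest, at 4074 and 3824 bp, ranked 26 and 21 among the 510 gains in the authors' deposited table. In IDH1mut cells the first 4 of these windows were listed, and the authors' deposited table gives them nearly level gains of 35.0, 32.3, 32.3 and 32.5 points. Those were larger than 59.4% to 69.0% of the 1035 gains in the authors' deposited table. The window nearest to the start, at 3574 bp, was listed for R-2HG and not for IDH1mut. Both comparisons use the same IDH1wt libraries, so their gains are not independent of each other.

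Subtracting one gain from the other gives how far R-2HG stood above IDH1mut in the 4 windows that both list. The remainder was 3.78, 7.15, 13.5 and 15.3 points from the farthest window to the nearest, by subtraction of the values in the authors' deposited tables. All 4 are under 25 points, and the direct comparison of R-2HG with IDH1mut lists none of these windows. No error can be given for a remainder, so the data do not show whether it exceeds the spread between libraries.

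In the far group, R-2HG cells alone were listed against IDH1wt. The authors' deposited table gives gains of 34.4, 35.2, 39.0 and 28.7 points for the windows at 6824, 6574, 6324 and 6074 bp. The window at 6324 bp (22802001 to 22802500) was also listed for R-2HG against IDH1mut, with 26.2 points in the authors' deposited table. That value is 1 of the smaller gains of its table, at rank 181 of 214, and close to the 25-point limit. Subtraction puts IDH1mut 12.8 points above IDH1wt in this window. For the other 3 windows of the far group a value for IDH1mut cannot be derived, since a single table lists each. A missing entry for IDH1mut here does not show that its methylation equalled that of IDH1wt.

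**Figure D1:**
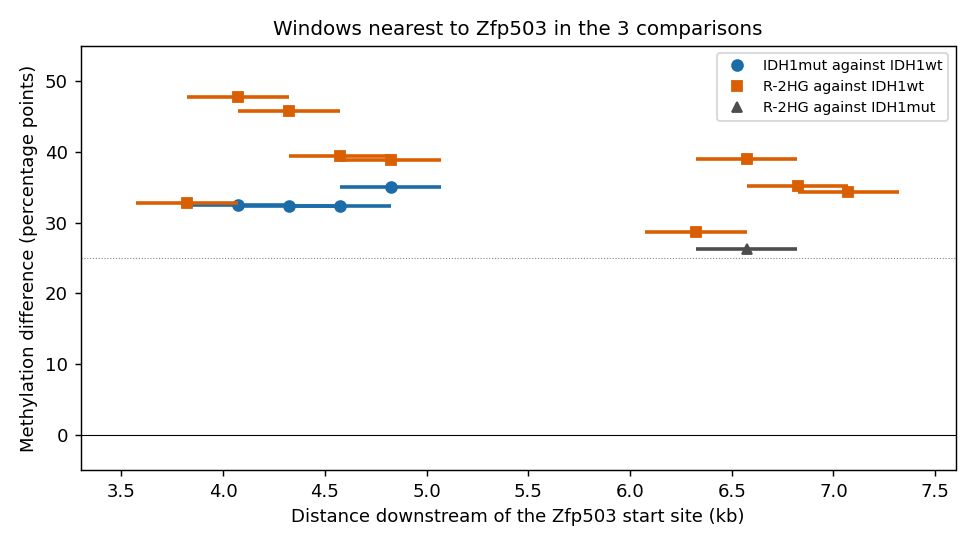
Methylation differences (percentage points) at Zfp503 against the distance downstream of its start site (kb); each horizontal bar is a 500-bp window, the point is its centre, colours are the 3 comparisons and the dotted line is the 25-point limit of the tables. R-2HG against IDH1wt has 9 windows between 28.7 and 47.8 points in 2 groups, IDH1mut against IDH1wt 4 windows between 32.3 and 35.0 points in the near group, and R-2HG against IDH1mut 1 window at 26.2 points in the far group.

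Neighbouring windows overlap by 250 of their 500 bp and share CpGs, so 9 windows are fewer than 9 measurements. Among the 7 neighbouring pairs of Zfp503 for R-2HG the difference changed by a median of 3.80 and at most 15.1 points in the authors' deposited table, and no pair was identical. Over the 274 such pairs of all genes the median step was 0.339 points and 36.5% of pairs held exactly the same value in the authors' deposited table. In IDH1mut the 3 pairs of Zfp503 changed by at most 2.72 points, also with none identical, in the authors' deposited table. The authors' p and q were 0 for all 14 entries of Zfp503 in the 3 deposited tables, which gives no order among them.

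At Skor2, IDH1mut stood apart from both other groups in 2 places, and in opposite directions. Methylation was higher in IDH1mut at the place farther from the gene and lower at the place nearer to it. R-2HG differed from IDH1mut there by about as much in the other direction, and no window of Skor2 was listed for R-2HG against IDH1wt. Both places lie far upstream of the start of transcript NM_001109743 (plus strand), at 266 and 246 kb. The authors' assignment to Skor2 thus says that no start site in their annotation was nearer, not that the windows belong to the gene. On chromosome 18 in mm9 they span 76828751 to 76829500 and 76848751 to 76849500, with 19250 bp between them, and the authors' distances place the start at 77095144.

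At the farther place, 2 overlapping windows at -265894 and -265644 bp each had a difference of 32.1 points for IDH1mut against IDH1wt in the authors' deposited table. The same 2 windows each had -28.3 points for R-2HG against IDH1mut in the authors' deposited table. The authors' p and q were 0 for these 4 entries in the deposited tables. By subtraction R-2HG was 3.84 points above IDH1wt.

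At the nearer place, the windows at -245894 and -245644 bp each had -29.3 points for IDH1mut against IDH1wt in the authors' deposited table, with q = 0.00043. For R-2HG against IDH1mut each had 30.7 points in the authors' deposited table, with q = 7.5e-07. By subtraction R-2HG was 1.35 points above IDH1wt. In both places R-2HG therefore fell within 4 points of IDH1wt by arithmetic, a closeness that the 25-point limit would not have let the tables list and for which no error is known. The 2 comparisons share the IDH1mut libraries, so the mirrored values are not independent of each other. With both listed differences over 25 points and R-2HG under 25 points from IDH1wt, their signs had to be opposite.

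**Figure D2:**
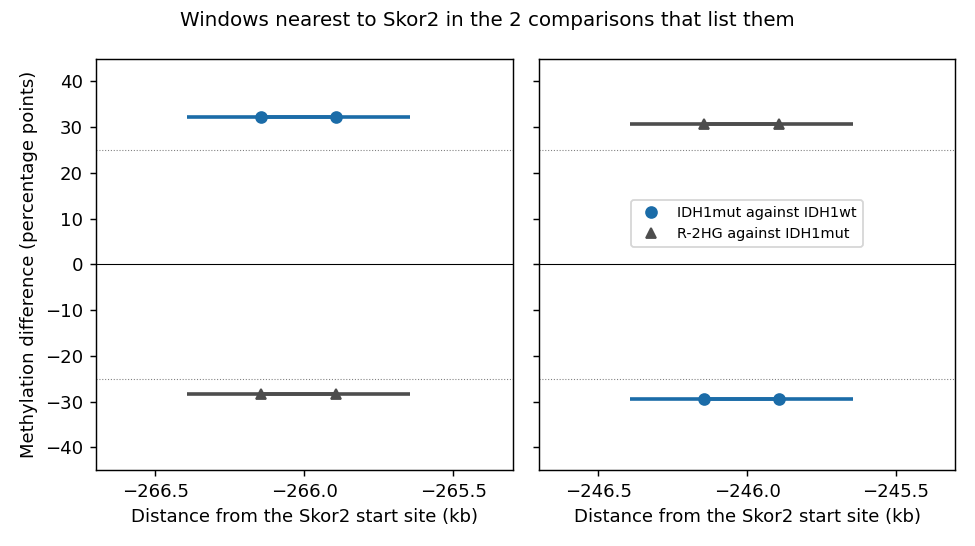
Methylation differences (percentage points) at the 2 places assigned to Skor2 against the distance from its start site (kb, negative upstream); each horizontal bar is a 500-bp window and the point its centre. IDH1mut against IDH1wt lies at 32.1 points in the left panel and -29.3 in the right, and R-2HG against IDH1mut at -28.3 and 30.7, so the 2 comparisons mirror each other.

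Within each place the 2 windows carried exactly the same difference, p and q in both deposited tables. The 4 windows of Skor2 are thus 2 separate values per comparison. Over all genes, 183 of 551 neighbouring pairs were identical for IDH1mut against IDH1wt and 66 of 220 for R-2HG against IDH1mut in the authors' deposited tables. The sizes at Skor2 were ordinary for the tables. In the authors' deposited table the gain in IDH1mut was larger than 58.6% of the gains and the loss larger than 53.1% of the losses. For R-2HG against IDH1mut the authors' deposited table gives shares of 57.5% and 41.1%.

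Set side by side, the 2 genes differ in which group stands apart. At Zfp503 IDH1mut and R-2HG both lay above IDH1wt in the 5 windows that 2 tables list, with the 12.8 points of IDH1mut at 6324 bp by subtraction. In these windows R-2HG was 3.78 to 26.2 points above IDH1mut, of which only the 26.2 points were listed and the rest were obtained by subtraction. At Skor2 R-2HG lay within 4 points of IDH1wt by subtraction and IDH1mut was listed as different from both. Zfp503 had windows in all 3 tables but none in all 3 at once: 5 of its 9 windows were in 2 tables and 4 in 1. All 4 windows of Skor2 were in 2 tables.

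**Figure D3:**
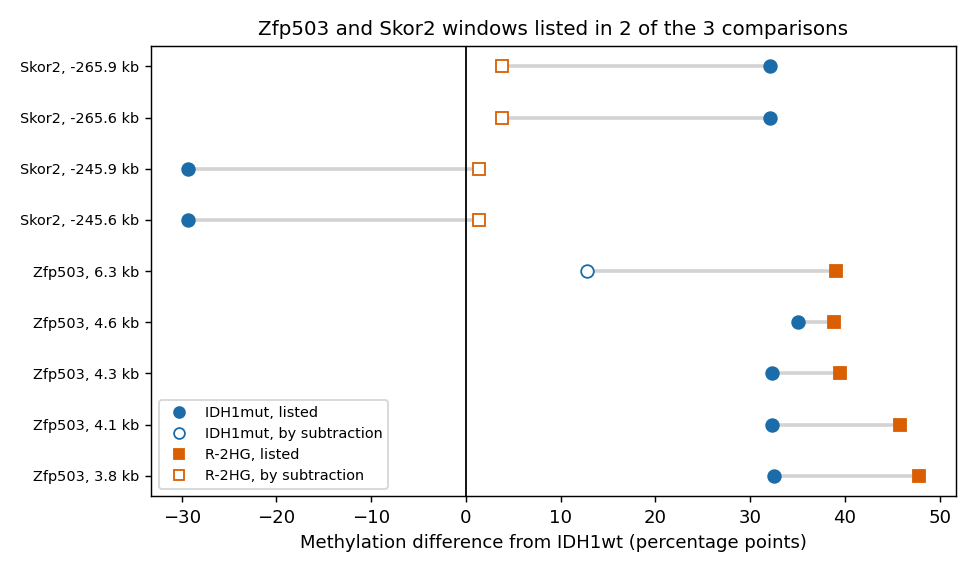
Methylation relative to IDH1wt (percentage points, vertical line at 0) in the 9 windows that 2 of the 3 tables list, one line per window with its distance from the start site; filled symbols are listed differences, open symbols were obtained by subtraction. In the Skor2 windows R-2HG sits at 3.84 or 1.35 points while IDH1mut sits at 32.1 or -29.3, and in the Zfp503 windows both groups are above 0, R-2HG the further.

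Zfp503 had the most windows of any gene for R-2HG against IDH1wt, 9 windows, a number that 0.221% of the 452 listed genes reached. With 4 windows each for IDH1mut against IDH1wt, Zfp503 and Skor2 shared the ninth place, held by 27 genes in all, and 3.97% of 881 listed genes had at least 4. For R-2HG against IDH1mut Skor2 shared the third place with 4 windows, which 1.63% of 369 listed genes reached, whereas Zfp503 had 1. The median gene had 2 windows in each table. These counts are what the genes were chosen on.

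**Figure D4:**
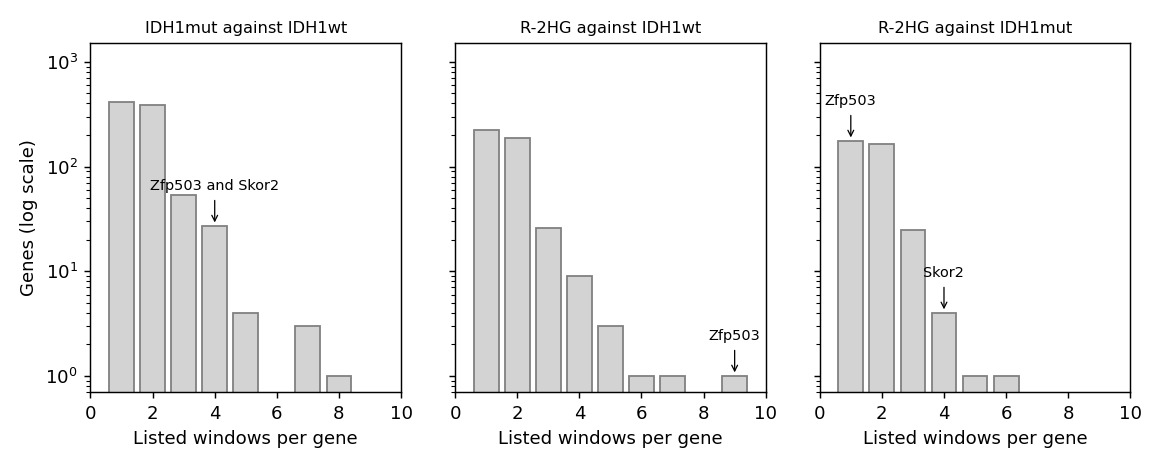
Number of listed windows per gene (horizontal) against the number of genes with that many (vertical, log scale) in each of the 3 comparisons, with Zfp503 and Skor2 marked. Zfp503 is at 9 windows in the middle panel, beyond every other gene, and Skor2 is at 4 windows in the left and right panels.

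The regions around both genes held no other listed windows. Within 300 kb of either gene's windows no table listed a window of another gene. The nearest such window lay 2229.5 kb away at Zfp503, assigned to Nid2, and 576.5 kb away at Skor2, assigned to St8sia5. In the gene order of RefSeq (GRCm38.p6) the noncoding RNA gene A330001L22Rik comes next after Zfp503 at higher coordinates. Zfp503 is on the minus strand, so this is the upstream side, away from the listed windows. At lower coordinates, the side of the windows, the next gene is the protein-coding A430057M04Rik. The next protein-coding gene on the upstream side of Skor2 is Smad2, which encodes a SMAD that carries TGF-beta signals and was not listed in any table. A distance to the start at least as large as that of the nearest Skor2 window was found for 7.03% of windows for IDH1mut against IDH1wt and 2.82% for R-2HG against IDH1mut in the authors' deposited tables. A place within 7.5 kb downstream of a start, as at Zfp503, held 22.0% of the windows for R-2HG against IDH1wt in the authors' deposited table.

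The pattern most like that of each gene was sought over the 1223 genes listed in any table, as the smallest Euclidean distance over 6 counts, the gains and losses in each of the 3 comparisons. Gm1821 and Hoxb3 came closest to Zfp503, at a distance of 4.24, each with 3 gains for IDH1mut and 5 for R-2HG against IDH1wt. Celf2 followed at 5.10, a distance that other genes share. Edn3 and Igsf21 came closest to Skor2, at a distance of 2, with 2 gains and 2 losses for IDH1mut against IDH1wt and 2 gains for R-2HG against IDH1mut. Ptchd2 followed at 2.24, with 2 losses for R-2HG against IDH1mut. No other gene had the counts of either member. Windows in both directions within 1 gene, as at Skor2, were found for 23 of 881 genes for IDH1mut against IDH1wt and for 5 of 369 for R-2HG against IDH1mut.

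The related lists held 52 genes: family relatives and partners of the corepressors, 10 Purkinje and hindbrain factors, and 10 striatal and retinal factors. Of the 52 genes, 8 (15.4%) were listed in any table, where 4.81% of the 21900 protein-coding genes of RefSeq were. They numbered 5 for IDH1mut and 4 for R-2HG against IDH1wt, and 2 for R-2HG against IDH1mut, where 3.46%, 1.78% and 1.48% of the protein-coding genes were listed. The lists were drawn up with earlier results of these data known, some of their members among them, so these shares support nothing about the lists. In IDH1mut they had 2 gains and 8 losses and in R-2HG 1 gain and 5 losses against IDH1wt, where 69.3% and 68.0% of all listed windows were gains. R-2HG against IDH1mut had 2 gains and 1 loss. Most of the losses against IDH1wt were overlapping windows, at Ski, Tle3 and Smad9 for IDH1mut and at Ski and Isl1 for R-2HG. The losses thus come from fewer places than windows, and no direction of the lists can be read from them. Of the 5 other SKI and SNO family genes 1 was listed, Ski, the founding member of the family. In the authors' deposited table its 2 windows, 7145 and 7395 bp downstream of its start on chromosome 4, had -42.0 and -33.8 points for IDH1mut against IDH1wt. For R-2HG against IDH1wt the authors' deposited table gives them -32.4 and -26.5 points. At Ski both groups were thus below IDH1wt, where at Zfp503 they were above. Zfp703, the other NET family gene, was not listed.

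Of the 8 SMAD genes, whose products SKI family proteins bind, 4 were listed in any table, against the 4.81% of all protein-coding genes above. In the authors' deposited table Smad5, which carries BMP signals, had 38.4 points at -24121 bp and 30.9 points at 61974 bp for IDH1mut against IDH1wt. The first of these windows had -28.2 points for R-2HG against IDH1mut in the authors' deposited table. Smad9, another BMP SMAD, had -27.3 points in 2 windows from 8749 bp downstream for IDH1mut against IDH1wt in the authors' deposited table. The same windows had 26.6 points for R-2HG against IDH1mut in the authors' deposited table. In these 3 windows, as at Skor2, the differences of the 2 comparisons had opposite signs. That follows from the listing and is no shared trait, since equal signs would put R-2HG more than 25 points from IDH1wt. None of these windows was listed for R-2HG against IDH1wt, and both comparisons use the IDH1mut libraries. Smad1, a BMP SMAD, had -26.1 points at 43118 bp for IDH1mut, and Smad3, a TGF-beta SMAD, -26.1 points at 2552 bp for R-2HG, each against IDH1wt in the authors' deposited tables.

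Of the 6 Groucho genes Tle3 was listed, with -26.1 to -34.5 points in 3 windows about 137 kb downstream for IDH1mut against IDH1wt in the authors' deposited table. None of the 12 corepressor scaffold and deacetylase genes considered was listed. None of the 10 Purkinje and hindbrain factors was listed. With 4.81% of all protein-coding genes listed in any comparison, these absences are no result about the lists. Of the 10 striatal and retinal factors, 2 were listed for R-2HG against IDH1wt, where 1.78% of the protein-coding genes were. Differences between the lists were not tested. In the authors' deposited table Ebf1, a factor of striatal neurons and of B cells, had 41.6 points at 2867 bp. Isl1, a LIM homeobox factor of striatal and motor neurons, had -27.7 and -27.6 points about 105 kb upstream of its start in the authors' deposited table.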

How the data were processed

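RRBS was done on 6 libraries, 2 each of IDH1wt, IDH1mut and R-2HG. The submitters' processing notes name Trim Galore, BSMAP, methylKit 0.9.1 and the mm9 build, while the authors' settings, coverage filter and test were not given in the sources used. Per the file headers, the authors deposited p-values and q-values per window, a signed methylation difference (a score in percentage points) and the distance to the nearest start site (another number, in bp). Windows were 500 bp long and started 250 bp apart. Each window was counted once per chromosome and start. Differences were ranked, subtracted and joined into runs (1000 bp) with Python 3.11.15, pandas 2.3.3 and numpy 2.4.6, and joining and sign orders were tested on simulated data. The simulated differences held no noise. Sign orders were judged there by windows listed in all 3 comparisons, and Zfp503 and Skor2 have no such window. No test was made: the genes and gene lists were chosen with earlier results of these data known, and no library has its own value, so depth is unknown and no interval is given. The genes named are the 2 members, the 3 genes with the nearest counts, neighbours within 100 kb, and listed members of the related lists. Smad2, Nid2, St8sia5, A330001L22Rik and A430057M04Rik were named after their values or positions were seen. The alternatives were larger differences, a smaller q, repeated rows, assignment by position, windows that do not overlap, other joining distances and the opposite sign reading. 1 gene of the related lists as first drawn up is not reported here.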

Additional observations from a re-analysis of the deposited data

How the results depend on the processing

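No paired analysis was possible because the deposited tables hold comparisons and no value per library, and for the same reason no library could be left out. Counting only windows that do not overlap gave Zfp503 2 windows for IDH1mut and 5 for R-2HG against IDH1wt, and Skor2 2 for IDH1mut against IDH1wt and 2 for R-2HG against IDH1mut. A limit of 30 points left Zfp503 8 of 9 windows for R-2HG against IDH1wt and 0 for R-2HG against IDH1mut. It left Skor2 2 in each of its comparisons, those at 32.1 and at 30.7 points. Joining only overlapping windows made 2 runs of Zfp503. The opposite sign reading turned the medians of Zfp503 to -32.4 points for IDH1mut and -38.8 points for R-2HG, each against IDH1wt, and to -26.2 points for R-2HG against IDH1mut. For Skor2, whose medians of 1.40 and 1.19 points lie between a gain and a loss, it gave -1.40 and -1.19. A q of at most 0.001 and repeated rows changed no count of windows of either gene. Taking windows by position within 10 kb of those already counted could change none, since no other gene had a listed window within 300 kb. That setting puts no limit on the distance of a window from the start of its gene.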
